A study of Arabidopsis thaliana with 12 samples.

Results

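GRX480, SAG101, UGT76B1 and BIK1 are 4 Arabidopsis thaliana genes of salicylate and immune signalling, and their transcripts were followed in leaves of the cs26 mutant and of wild type. They were taken as the probe sets whose annotation names one of these genes, and each gene had 1 probe set that names it alone, so 4 genes of 13286 with such a probe set are described. The genes are AT1G28480 (GRX480), AT5G14930 (SAG101), AT3G11340 (UGT76B1) and AT2G39660 (BIK1). They were selected on their measured differences between cs26 and wild type in the 2 photoperiods, so those differences, and the change in them between day lengths, are given below as description without a test.

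Total RNA came from leaves of 4 groups with 3 Affymetrix ATH1 arrays each, called biological replicates by the submitters. The short-day groups, cs26 and wild type, had 8 h light and 16 h dark and were 5 weeks old. The long-day groups, cs26 and wild type, had 16 h light and 8 h dark and were 3 weeks old. Wild type was accession Col-0, and cs26 was the insertion line SALK_034133, so the mutation is represented by a single line. All plants grew on soil with Hoagland medium at a day temperature of 20 °C and a night temperature of 18 °C. Day length and plant age therefore changed together and cannot be told apart. The study set mutant against wild-type leaves separately for each photoperiod. CS26 encodes an S-sulfocysteine synthase of the chloroplast according to the series title. No probe set names CS26 in the annotation used, so it was not used to check the labels.

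Salicylate is the hormone that plants make on infection by pathogens that feed on living tissue, and it switches on defence genes through the NPR receptors and TGA transcription factors. Immune signalling begins earlier, at receptors on the cell surface that detect microbial molecules and at receptors inside the cell that detect pathogen effectors. BIK1 is a cytoplasmic kinase that is tied to the surface receptors and passes their signal to the NADPH oxidase RBOHD. SAG101 is a lipase-like partner of EDS1, and this pair works downstream of many intracellular receptors. UGT76B1 is a glucosyltransferase that conjugates salicylate, N-hydroxypipecolate and isoleucic acid and so limits defence signals. GRX480 is a CC-type glutaredoxin that is induced by salicylate and binds TGA factors.

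Values are log2 expression after RMA, the submitters' normalisation, where a difference of 1 is a doubling. Array medians lay between 5.42 and 5.52. SAG101 in every group, and UGT76B1 in all groups but wild type in short days, lay near that middle. UGT76B1 was below it on 3 of 3 wild-type long-day arrays, 3 of 3 cs26 short-day arrays and cs26 long-day replicate 2 (5.41). Array values of dim transcripts understate differences. Precision is limited by the 3 arrays per group. In whole leaves, fewer cells of a type and less RNA per cell cannot be told apart.

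The members shared an order of genotypes. Each averaged lower in cs26 than in wild type in short days and higher in cs26 than in wild type in long days. They differed in which group stood out. Wild type in short days was highest for GRX480, SAG101 and UGT76B1, whereas cs26 in long days was highest for BIK1.

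BIK1, the receptor-proximal kinase, read 5.89, 5.76 and 5.72 on the 3 cs26 arrays in short days, against 6.51, 6.61 and 6.06 on the wild-type arrays. The long-day arrays read 7.88, 7.75 and 7.93 in cs26, against 6.68, 6.56 and 6.80 in wild type. Every cs26 array was below every wild-type array in short days and above every one in long days. The cs26 difference was -0.60 ± 0.129 in short days (log2, SE, n = 3 arrays per group), a level 1.52-fold lower in cs26, and 1.17 ± 0.129 in long days, 2.26-fold higher in cs26. From low to high, the group means were 5.79 in cs26 in short days, 6.39 and 6.68 in wild type in short and long days, and 7.85 in cs26 in long days. The wild-type groups overlapped and the other neighbours in this order did not.

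SAG101, the EDS1 partner, moved least. It read 5.39, 5.18 and 5.75 in cs26 in short days, against 6.28, 5.75 and 5.91 in wild type. Its long-day values were 5.99, 5.44 and 5.76 in cs26, against 5.53, 4.90 and 5.26 in wild type. The genotypes overlapped, or met at 5.75, in both day lengths. The cs26 difference was -0.54 ± 0.20 in short days and 0.50 ± 0.20 in long days. Each group also overlapped the next in order of means, which ran from 5.23 in wild type in long days through 5.44 in cs26 in short days and 5.73 in cs26 in long days to 5.98 in wild type in short days. Replicates of SAG101 spread more than those of the others, with a within-group SD of 0.289 against 0.168 to 0.208 for the other members and a median of 0.139 over all probe sets. Replicate 2 read lowest in every group. With a term for replicate number in the model (the replicate block), the SE of the SAG101 cs26 difference was 0.127 in each photoperiod. The replicate numbers were not taken as pairing the arrays. Leaving out single arrays, the long-day cs26 difference of SAG101 ran from 0.34 without wild-type replicate 2 to 0.65 without wild-type replicate 1. Wild-type long-day replicate 2 was an array whose 25S ribosomal RNA control probe set read 9.64 where the other 11 arrays read 4.53 to 5.12.

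UGT76B1, the glucosyltransferase, was set apart by wild type in short days. It read 5.16, 5.11 and 5.10 in cs26 in short days, against 7.71, 7.88 and 7.61 in wild type. Long-day values were 5.77, 5.41 and 5.86 in cs26, against 5.01, 4.74 and 4.39 in wild type. The genotypes did not overlap in either day length, and neither did any neighbours in the order of the 4 groups. The cs26 difference was -2.61 ± 0.151 in short days, 6.11-fold lower in cs26, and 0.97 ± 0.151 in long days, 1.95-fold higher in cs26. The short-day difference was larger in size than those of 99.9% of all probe sets. The gene was chosen on such differences, so nothing is read from this rank. The 3 mutant arrays in short days agreed closely (SD 0.0321), at a level below the array medians.

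GRX480, the salicylate-induced glutaredoxin, swung widely in both day lengths. It read 6.88, 6.61 and 7.0 in cs26 in short days, against 8.31, 8.29 and 8.61 in wild type. In long days it read 8.17, 8.34 and 8.13 in cs26, against 5.65, 5.84 and 5.50 in wild type. The genotypes did not overlap in either day length. The cs26 difference was -1.57 ± 0.127 in short days, 2.98-fold lower in cs26, and 2.55 ± 0.127 in long days, 5.86-fold higher in cs26. Mutant leaves in long days (mean 8.21) and wild-type leaves in short days (mean 8.40) were the upper pair in the order and overlapped, while cs26 in short days (6.83) and wild type in long days (5.66) were each clear of their neighbours.

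**Figure D1:**
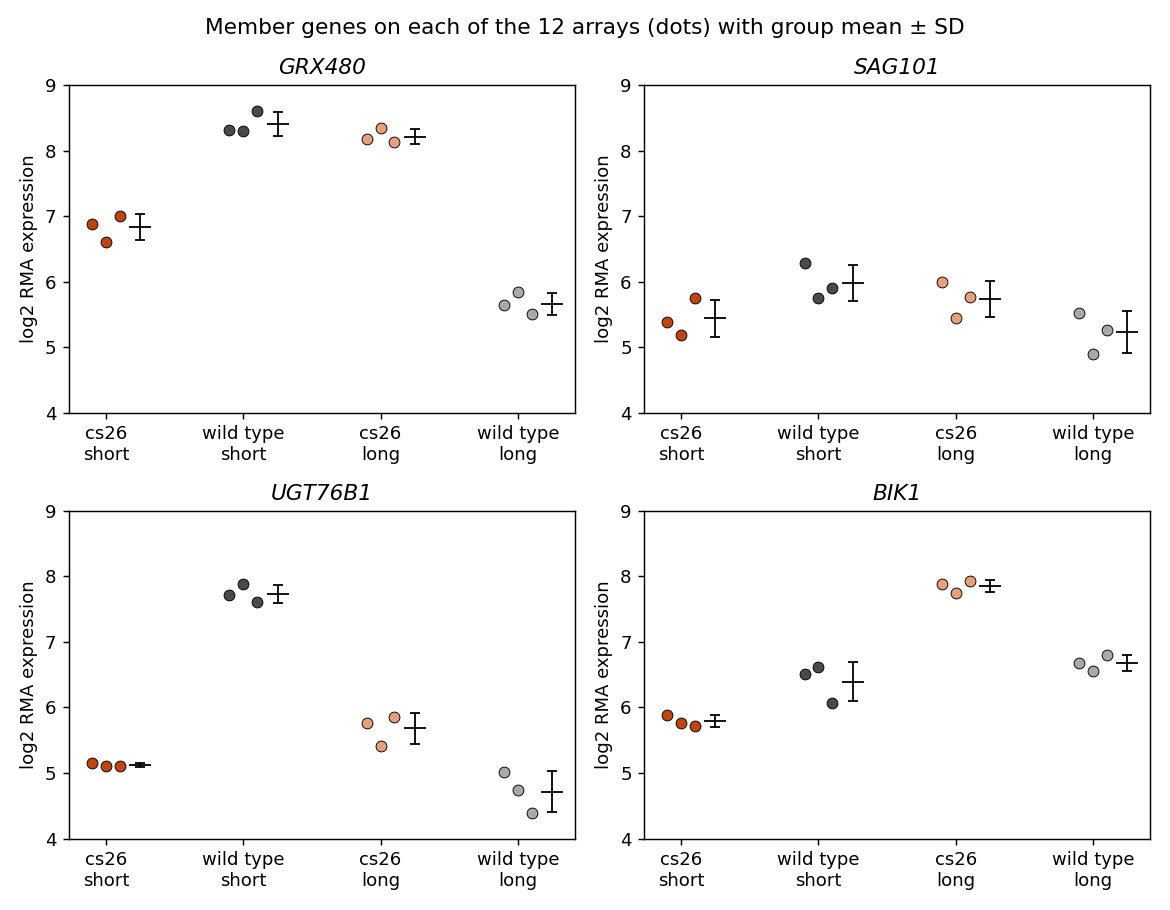
Log2 RMA expression of each gene on the 12 arrays (dots, 3 per group) with the group mean ± SD beside them. GRX480 and UGT76B1 peak in wild type in short days, with cs26 in long days level with it for GRX480 only, BIK1 peaks in cs26 in long days, and the SAG101 groups run into each other.

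Counted together, 3 of 4 members lay without overlap lower in cs26 in short days, and 14.8% of all probe sets did so. The same 3 lay without overlap higher in cs26 in long days, where 18.9% of all probe sets did. Both held together for 6.39% of all probe sets. The choice of members used these contrasts, so nothing is read from the counts. The change in the cs26 difference, short days minus long days, was -4.12 ± 0.18 for GRX480, -3.58 ± 0.213 for UGT76B1, -1.78 ± 0.182 for BIK1 and -1.04 ± 0.283 for SAG101.

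Arrays differed in ways other than the genes of interest. The 12 Bacillus control probe sets, for transcripts added during labelling, averaged 5.59 to 6.2 in cs26 and 5.66 to 5.69 in wild type in short days, and 6.47 to 6.70 in cs26 and 7.03 to 7.21 in wild type in long days. Actin signal at the 3′ end exceeded that at the 5′ end by 1.99 to 2.17 in cs26 and 1.86 to 2.48 in wild type in short days, and by 1.07 to 1.24 in cs26 and 0.92 to 1.31 in wild type in long days. The first measure separated the genotypes in long days, and both measures separated the day lengths, and their part in the results was not tested. The array farthest from its own group was short-day cs26 replicate 2, with an SD of 0.208 across probe sets. Without it the short-day cs26 difference was -1.46 for GRX480, -0.41 for SAG101, -2.60 for UGT76B1 and -0.59 for BIK1.

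Few defining leaf markers have a probe set naming them alone. The mesophyll genes RCA (Rubisco activase) and LHCB4.2 were bright in every group, with means from 13.34 to 13.83 for RCA and from 10.68 to 13.25 for LHCB4.2, as fits leaf tissue. LHCB4.2 fell by 1.32 in cs26 in long days (adjusted p = 2.5e-07) and read -0.08 in short days. RCA did not fall with it, at 0.06 in long days and 0.40 in short days (adjusted p = 0.88 and 0.133). Of 5 root markers 2 were measured. The beta-glucosidase gene PYK10, abundant in roots, read 6.64, 6.63 and 6.53 in cs26 in long days, against 3.86, 4.15 and 3.71 in wild type, a rise of 2.69 ± 0.10 (adjusted p = 1.28e-09). The root-hair expansin EXPA7 measured 0.11 there (adjusted p = 0.516). In short days PYK10 measured -0.01. PYK10 thus moved with the long-day rises reported below, and its part in them was not tested. None of 5 flower and seed markers was measured, SWEET11 was the 1 vascular marker of 6, and the 2 of 10 epidermal markers were FMA (guard cells), not called for cs26 in either photoperiod, and SPCH (stomatal lineage), which rose by 0.36 in cs26 in long days (adjusted p = 0.0073).

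Each genotype was also set against itself, short days against long days. The change in the cs26 difference that marks these genes is, by arithmetic, the cs26 day-length change minus the wild-type one, and the same arrays enter. The day-length values are therefore given as description, with no p, and nothing is read from how many members went a given way.

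BIK1 was 2.06 ± 0.129 lower in short-day than in long-day cs26 leaves, 4.18-fold, with 3 of 3 short-day arrays below every long-day array. In wild type it was 0.29 ± 0.129 lower in short days, and the groups overlapped. That wild-type value ran from -0.40 without short-day replicate 2 to -0.12 without short-day replicate 3.

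SAG101 measured -0.29 ± 0.20 in short-day against long-day cs26 leaves, and the arrays overlapped. This value was -0.16 without long-day replicate 1 or without short-day replicate 2, and -0.45 without short-day replicate 3. In wild type it was 0.75 ± 0.20 higher in short days, with 3 of 3 short-day arrays above every long-day array.

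UGT76B1 was 0.56 ± 0.151 lower in short-day cs26 leaves, with 3 of 3 arrays below every long-day one, and 3.02 ± 0.151 higher in short-day wild-type leaves, 8.11-fold. GRX480 was 1.38 ± 0.127 lower in short-day cs26 leaves, 2.61-fold, and 2.74 ± 0.127 higher in short-day wild-type leaves, 6.68-fold. For GRX480 both genotypes had 3 of 3 short-day arrays clear of every long-day array.

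Cell-type markers moved with day length too, by limma over all 22746 probe sets. In short-day cs26 leaves PYK10 fell by 2.66 (adjusted p = 5.37e-10), EXPA7 by 0.37, FMA by 0.70, SPCH by 0.41 and SWEET11 by 0.81. LHCB4.2 rose by 2.5 there (adjusted p = 3.59e-10), whereas RCA, the other mesophyll marker, measured -0.09 (adjusted p = 0.713). In short-day wild-type leaves SWEET11 fell by 1.09 and FMA by 0.81, LHCB4.2 rose by 1.25, and PYK10, EXPA7, SPCH and RCA measured 0.05, -0.19, -0.07 and -0.43 without passing the test. Their part in the day-length values of the members and of the list genes was not tested.

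**Figure D2:**
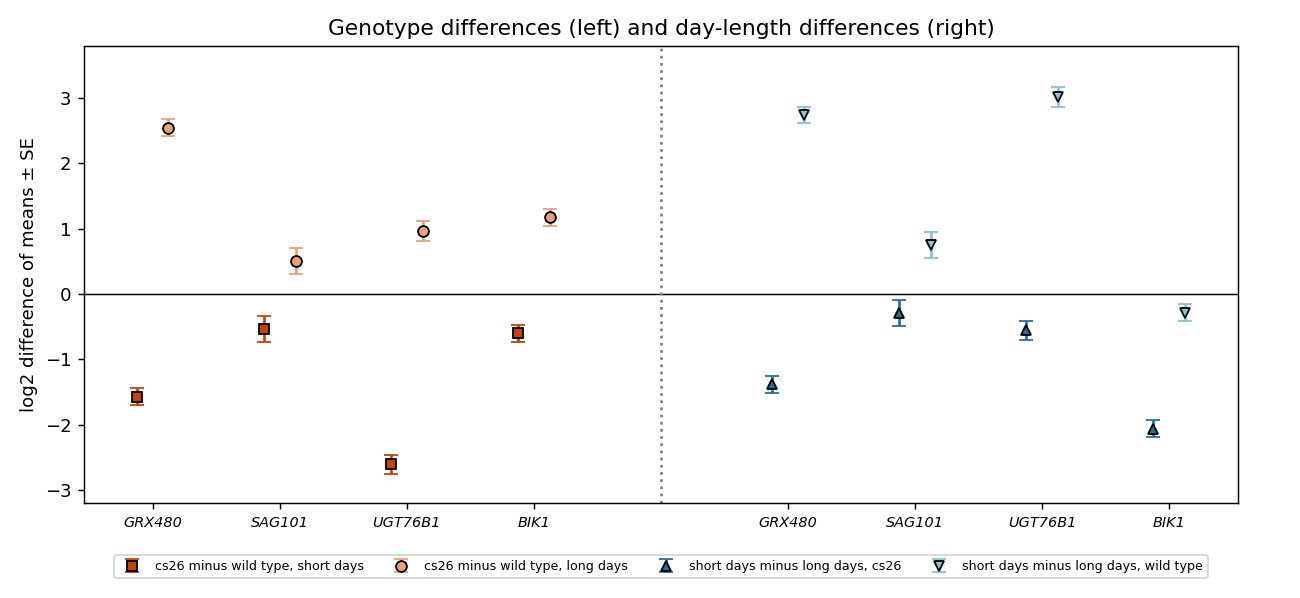
Log2 differences of group means with the SE of the linear model. On the left, cs26 minus wild type is below 0 in short days and above 0 in long days for all 4 genes, and on the right, short minus long days is below 0 in cs26 for all 4 and above 0 in wild type for GRX480, SAG101 and UGT76B1.

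The wider pathway was read from 13 gene lists holding 158 genes, of which 42 genes other than the members had a probe set naming them alone. Among them are 16 genes of the 11 signalling lists, 15 of the CC-type glutaredoxin list and 12 of the UGT76 list, with UGT76D1 on 2 lists. None of the 15 genes of salicylate synthesis and its control and none of the 10 TGA factors was among them. Loci given below by number were put on their list by locus and, except AT1G61380, have no symbol in the annotation used.

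In short days 4 of the 42 rose in cs26 and 5 fell, against 8.89% and 7.84% of all probe sets. The median difference was 0.06 for these genes and 0.00 for all probe sets. The 4 that rose were UGT76E11, AT5G05890, SGT1A and AT1G06830, and the 5 that fell were WRKY53, AT5G52810, AT5G11930, BSMT1 and AT1G11960. The number that rose was 11 without cs26 short-day replicate 2 and 2 without wild-type short-day replicate 1. The share of all probe sets called in those fits was not counted. In long days 13 rose in cs26 and 5 fell, against 12.8% and 11.8% of all probe sets, with a median of 0.15 against -0.01. The glutaredoxin list held 8 of these 13. Across both photoperiods, 2 genes rose in long days and fell in short days, 2 went the reverse way, 4 were called in the same direction in both, 10 in long days only, 1 in short days only and 23 in neither. The shares of all probe sets in these classes were not counted, so nothing is read from these numbers.

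Signalling genes beside the members were few. Members aside, WRKY53 was the 1 gene measured on the salicylate-responsive list of 15. Likewise AT5G52810 was the 1 on its list of 6, and AT3G48080 the 1 on its list of 10. WRKY53, a transcription factor of senescence and defence, read 8.11, 7.99 and 8.28 in cs26 in short days, against 10.05, 10.25 and 10.14 in wild type, and fell by 2.02 ± 0.124 (adjusted p = 5.33e-07). In long days it read 9.75, 9.48 and 9.65 in cs26, against 7.26, 7.31 and 6.88 in wild type, a rise of 2.48 (adjusted p = 1.61e-08). It thus kept the order of groups seen for GRX480, with wild type in short days highest.

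AT5G52810, from the list of N-hydroxypipecolate and systemic resistance that also holds UGT76B1, read 7.66, 7.36 and 7.75 in cs26 in short days, against 9.03, 8.88 and 8.76 in wild type. The long-day arrays gave 9.18, 9.27 and 9.27 in cs26, against 7.34, 7.49 and 7.27 in wild type. The genotypes stood clear of each other both times, where it fell by 1.3 ± 0.11 in short-day cs26 and rose by 1.87 in long-day cs26 (adjusted p = 8.61e-06 and 7.07e-08). AT3G48080, from the EDS1 list that holds SAG101, read -0.51 ± 0.178 in short days (adjusted p = 0.074) and rose by 0.71 ± 0.178 in long days (adjusted p = 0.0102), a call lost without cs26 long-day replicate 3 (0.59).

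Of 9 genes of salicylate modification 4 were measured, all dim, with group means from 3.72 to 4.84. BSMT1, which methylates salicylate and benzoate, fell by 0.66 ± 0.143 in cs26 in short days (adjusted p = 0.00709) and measured 0.00 in long days (adjusted p = 0.991). UGT74F1, a salicylate glucosyltransferase, UGT71C3 and UGT76D1 passed no test of genotype, with values from -0.17 to 0.11 over both photoperiods. The single measured gene of the NPR list, AT4G26120, read -0.08 in short days and 0.23 in long days (adjusted p = 0.625 and 0.0911).

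Of all probe sets, 8.89% rose and 7.84% fell in cs26 in short days, and 12.8% and 11.8% in long days. With most probe sets uncalled in each photoperiod, nothing is read from the next count. Genes of pattern recognition near BIK1 passed no test of genotype in 6 of 7 cases. They were the bacterial EF-Tu receptor gene EFR (-0.02 ± 0.109 in short days and 0.30 ± 0.109 in long days), AT1G61380, an S-domain receptor kinase gene (-0.20 and 0.03), FER, a receptor kinase for RALF peptides (0.57 ± 0.301 and -0.14 ± 0.301), AT1G27190 (-0.21 and -0.23), AT5G18610 (0.08 and -0.07) and the ubiquitin ligase gene PUB26 (0.32 ± 0.162 and 0.19 ± 0.162). AT1G11960, from the signal relay list, was the exception and fell in cs26 in both, by 0.45 ± 0.0975 and 0.68 ± 0.0975 (adjusted p = 0.0072 and 1.83e-04). SGT1A, a co-chaperone of intracellular immune receptors, rose in both, by 0.47 ± 0.137 and 0.68 ± 0.137 (adjusted p = 0.0326 and 0.00251). Its short-day call was lost with the replicate block (adjusted p = 0.062), and also without cs26 short-day replicate 2 (0.31), wild-type short-day replicate 1 (0.50) or wild-type short-day replicate 2 (0.40).

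GRX480 belongs to the CC-type glutaredoxins, a plant-specific class of small redox proteins. Of the 15 other list members measured, 1 rose and 1 fell in cs26 in short days, against 8.89% and 7.84% of all probe sets, and 8 rose and 1 fell in long days, against 12.8% and 11.8%. The short-day count rests on cs26 replicate 2, without which 9 of the 15 rose and 1 fell. The share of all probe sets called without that array was not counted, so nothing is read from that number. AT4G15700 read 5.84, 5.04 and 5.86 in cs26 in short days, against 5.21, 5.48 and 5.35 in wild type (0.23 ± 0.185, adjusted p = 0.46). Its long-day values were 6.39, 6.48 and 6.43 in cs26, against 4.09, 4.35 and 3.96 in wild type, a rise of 2.30 ± 0.185 (adjusted p = 1.14e-06). Its groups overlapped in short days through cs26 replicate 2 alone, without which it rose by 0.50 ± 0.117 (adjusted p = 0.0125), and did not overlap in long days. AT4G15660 rose by 2.30 ± 0.198 in long days, AT4G15690 by 1.41 ± 0.223 and AT4G15680 by 1.36 ± 0.125, and these read 0.56, 0.45 and 0.35 in short days without passing the test. Without cs26 short-day replicate 2 all 3 passed it, at 0.81, 0.68 and 0.50. These 4 loci are numbered close together, and binding of a related transcript by their probe sets was not tested.

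AT3G62950 measured -0.52 ± 0.175 in short days (adjusted p = 0.0631), or -0.28 without cs26 replicate 2 (adjusted p = 0.189), and had a rise of 1.17 ± 0.175 in long days (adjusted p = 2.7e-04), and its cs26 effect differed between photoperiods (-1.68 ± 0.247, adjusted p = 2.42e-04). AT5G11930 fell in both, by 0.77 ± 0.117 and 1.33 ± 0.117. AT1G06830 rose in both, by 0.41 ± 0.11 and 0.79 ± 0.11, and its short-day call was lost without cs26 replicate 3 (0.31), wild-type replicate 1 (0.40) or wild-type replicate 3 (0.39). AT1G03020 and AT5G18600 rose in long days by 0.73 and 0.28, the first call lost without cs26 long-day replicate 3 (0.66) and the second without any of 10 of the 12 arrays (0.25 to 0.32), and ROXY1 and ROXY2, which act in petal and anther development, read between -0.24 and 0.21 and were not called.

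UGT76B1 belongs to the UGT76 glucosyltransferases, which conjugate cytokinins, flavonoids and other small molecules. Of the 12 others measured, 2 rose in cs26 in short days, against 8.89% of all probe sets, and 1 rose and 3 fell in long days, against 12.8% and 11.8%. UGT76E11 read 7.72, 7.98 and 7.58 in cs26 in short days, against 6.04, 6.32 and 6.01 in wild type, a rise of 1.64 ± 0.126 (adjusted p = 3.86e-06). In long days it read 5.57, 5.45 and 5.22 in cs26, against 6.98, 6.80 and 6.83 in wild type, and fell by 1.46 ± 0.126 (adjusted p = 2.32e-06). That order of genotypes was the reverse of UGT76B1's in both photoperiods. AT5G05890 ran the same way as UGT76E11, where it rose by 0.79 ± 0.11 in short days and fell by 0.62 ± 0.11 in long days. The cytokinin glucosyltransferase gene UGT76C1 fell by 0.92 ± 0.125 in long days and measured 0.31 in short days (adjusted p = 0.122), UGT76C2 measured 0.39 and -0.19 and was not called, and AT3G55710 rose by 0.69 in long days.

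**Figure D3:**
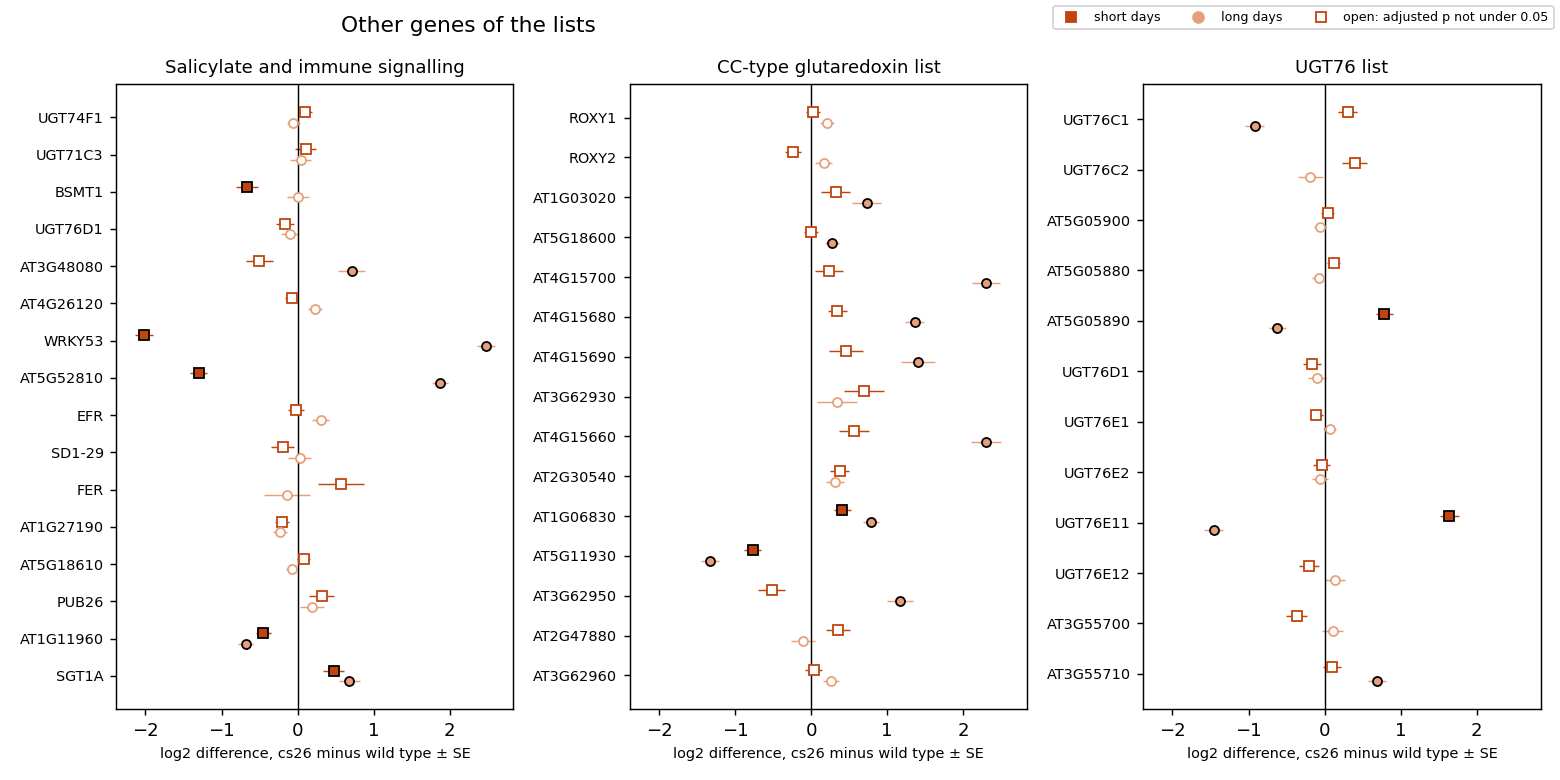
Log2 difference, cs26 minus wild type, with SE, for the 42 measured genes of the lists (filled symbols, adjusted p under 0.05). WRKY53 and AT5G52810 are called higher in long-day cs26 but lower in short-day cs26, UGT76E11 and AT5G05890 go the other way, and the long-day rises of the glutaredoxin list reach 2.30.

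For 14 of the 42 genes the cs26 effect itself passed the test of a difference between day lengths, against 27.6% of all probe sets. Short days minus long days, it was positive for 4 and negative for 10, against 14.8% and 12.7%. The negative side held WRKY53 (-4.50 ± 0.175, adjusted p = 1.99e-09), AT5G52810 (-3.17 ± 0.155) and AT4G15700 (-2.07 ± 0.261), and the positive side was led by UGT76E11 (3.09 ± 0.179, adjusted p = 5.86e-08). In wild type, short days against long days, 15 of the 42 rose and 7 fell, against 21.8% and 23.0% of all probe sets, and in cs26 9 rose and 13 fell, against 21.5% and 21.8%. In wild type WRKY53 rose by 3.00 ± 0.124 and PUB26 by 1.23 ± 0.162, whereas AT2G47880 of the glutaredoxin list fell by 1.72 ± 0.158 and FER by 1.03 ± 0.301 (adjusted p = 1.15e-09, 5.43e-05, 2.03e-06 and 0.0142). The FER call was lost without wild-type short-day replicate 2 (-0.68) or long-day replicate 1 (-0.97).

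For each member the 5 probe sets naming 1 gene with the most similar profile were found over the 12 arrays, as the root mean square (RMS) difference after each probe set was centred on its own mean. The likeness is a description, and the genes share the arrays. BIK1 was closest to AT3G62780 (RMS difference 0.114 log2 units), the signal peptide peptidase gene SPP, AT2G03120 (0.159), AT1G55210 (0.193), AT5G20950 (0.212) and the transcription factor gene WRKY6 (0.224), where its own RMS deviation from its mean was 0.763. AT3G62780 differed between cs26 and wild type by -0.56 in short days and 1.23 in long days, against -0.60 and 1.17 for BIK1.

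GRX480 was closest to WRKY53 (0.217), AT5G52750 (0.222), AT1G19020 (0.243), AT3G60540 (0.255) and EXO (0.294), a gene of leaf cell expansion, with an own RMS deviation of 1.12. Each of these had the highest mean either in wild type in short days or in cs26 in long days and the lowest in wild type in long days. The nearest to UGT76B1 were the alpha-amylase gene AMY1 (0.267), AT2G44380 (0.354), AT3G49340 (0.399), the calmodulin-like gene CML37 (0.458) and AT1G13340 (0.462), with an own RMS deviation of 1.17. AMY1 differed between cs26 and wild type by -2.87 in short days and 0.55 in long days.

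SAG101 was closest to CYB-1 (0.195), a cytochrome b561 gene, AT3G19010 (0.206), AT5G54780 (0.212), AT1G20890 (0.217) and AT4G17830 (0.219). Its own RMS deviation was 0.369, so these distances are large beside its own variation. Among the members themselves the RMS differences ran from 0.761 for GRX480 and UGT76B1 to 1.41 for UGT76B1 and BIK1. The closest profiles were picked for their small distances, so the distances between members are not compared with them.

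**Figure D4:**
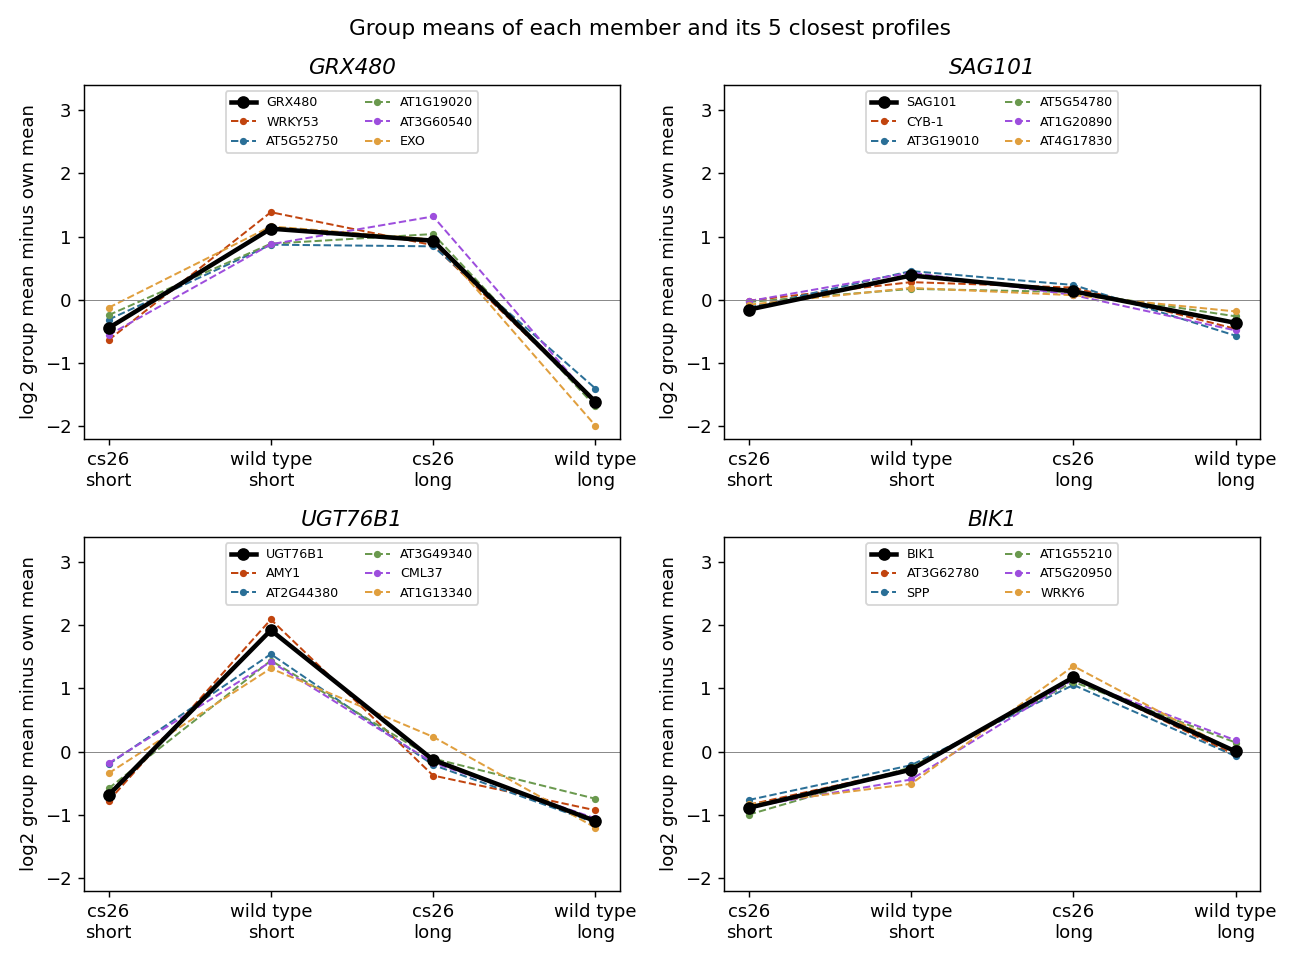
Group means of each member (black) and of its 5 closest probe sets (dashed), each minus the mean of its own 4 groups, in log2 units. The curves of BIK1 and of its 5 matches nearly coincide, those around UGT76B1 part at wild type in short days, where AMY1 alone lies above it, and those around SAG101 vary least.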

How the data were processed

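Leaf RNA of 12 samples was hybridised to Affymetrix ATH1 arrays from 4 µg of total RNA per the labels' protocols. The authors deposited log2 values, made with RMA and the affy package per the submitters' processing notes. The sources used here give neither versions nor whether 1 run normalised all arrays. The table has 22810 probe sets, from which 64 control probe sets were left out of tests. Of the 22746 others, 13513 name 1 gene, 503 name several and 8730 are unnamed here. Of these single genes, 13436 were found in the TAIR10.1 table by gene number and take their symbol from it. No coordinates or sequences were used.

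One linear model with 4 group means was fitted with limma 3.58.1 (lmFit, eBayes) under R 4.3.3, after a test on simulated data. The Benjamini-Hochberg adjustment covered all 22746 probe sets, and calls needed an adjusted p below 0.05. SE is the model's. Named genes are the members, the measured genes of the lists and the 5 nearest profiles per member. Members and lists were chosen with earlier results of these data known. The day-length tests of the members, though planned, use the values that chose them, so no p is given. The design text calls the 3 arrays of a group biological replicates. Alternatives were a replicate block, leaving out each array, quantile normalisation, centring of array medians, omission of dim probe sets, a trended robust prior, array weights, a fit on the compared groups alone and a threshold of 0.01.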

Additional observations from a re-analysis of the deposited data

Results flagged for a closer look

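Limma's test of the difference in cs26 effects, short days minus long days, called 27.6% of all probe sets. By that test the cs26 effect differed between photoperiods for 14 of the 42 measured list genes. It was lower in short days for WRKY53 (-4.50), AT5G52810 (-3.17), AT4G15700 (-2.07), AT4G15660 (-1.74), AT3G62950 (-1.68), AT3G48080 (-1.22), AT4G15680 (-1.02), AT4G15690 (-0.96), BSMT1 (-0.67) and AT3G55710 (-0.59). It was higher in short days for UGT76E11 (3.09), AT5G05890 (1.41), UGT76C1 (1.23) and AT5G11930 (0.56). Leaving out single arrays lost the call for AT4G15690 with 9 of the 12 arrays, BSMT1 with 6, AT5G11930 with 4 and AT3G55710 with 1.

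Every cs26 array lay below every wild-type array in short days and above every one in long days for GRX480 (difference of effects -4.12), UGT76B1 (-3.58) and BIK1 (-1.78). These differences were not tested, because the genes were chosen with them known.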

How the results depend on the processing

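The 12 cs26 differences of the members moved by less than their replicate spread under every alternative run. Each group holds replicates 1 to 3, so the replicate block could change only the SE of these values. Within a photoperiod the SE went from 0.20 to 0.127 for SAG101. It rose from 0.127 to 0.139 for GRX480, from 0.151 to 0.153 for UGT76B1 and from 0.129 to 0.136 for BIK1. Same-numbered arrays did not deviate together in every pair (correlations from -0.31 to 0.162), so the replicate numbers were not taken as pairing the arrays. Of 63 calls of list genes named by locus or symbol, 4 were lost with the block. Leaving out single arrays, the wild-type day-length difference of BIK1 ran from -0.395 to -0.12. Likewise the list genes called higher in cs26 in short days ran from 2 to 11. That number was 4 in the full model, 7 with dim probe sets left out (24 of 42 genes then remain), 10 with array weights and 2 at an adjusted p under 0.01. Shares of all probe sets called under the alternatives were not counted. The list genes called with a negative difference of cs26 effects, short days minus long days, numbered 6 without dim probe sets, against 10. An adjusted p under 0.01 lost 14 of the 63 named calls, and the other alternatives lost 12 of these 14, most often AT5G18600 in long days (13 settings) and the AT4G15690 difference (11 settings), and 0 changed sign. For these losses the cause was not tested.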
